A study of Mus musculus with 6 samples.

Results

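The 20 listed ribose methylation sites in the 3' part of 28S rRNA were described, in a stretch that includes the peptidyl transferase centre of the large ribosomal subunit. They are the sites of the authors' 28S list whose position in human numbering is 4000 or more, and they make up 20 of the 66 listed 28S sites and of the 108 listed sites of all rRNAs. The list gives no guide RNA, so no site was left out for want of one. In mouse 28S rRNA (4731 nt) they run from position 3695 to position 4290, a stretch of 596 nt. By base they are 10 G, 4 U, 3 A and 3 C. Sites are named here by base and human position, with LSU for the large subunit.

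RiboMeth-seq was applied to 6 whole mouse brains. Of these, 3 came from adult Snord115-KO mice, in which the Snord115 gene array on the paternally expressed allele was removed by CRISPR-Cas9, and 3 from E16.5 embryos of another line that lacks Snord115 and Snord116. The sample labels give E16.5 for these, while 1 figure legend of the study calls such brains adult, and the labels were followed. The Snord115 deletion is constitutive, so all cells of the brain carry it, and the second line is not described further in the sources used here. All 6 brains lack Snord115 and no wild-type (WT) brain is among them, so age, line and loss of Snord116 cannot be told apart in any comparison between both groups. Snord115 is a neuronal box C/D small nucleolar RNA (snoRNA), and the question put to these data was whether its loss changes rRNA methylation. The WT values quoted below are means and SDs in the authors' list, and were compared as a description, without a test.

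A box C/D snoRNA guides the methyltransferase fibrillarin to a target RNA. Its antisense element, which lies just upstream of a box D or D', pairs with the target, and the ribose opposite the base 5 places upstream of the box receives the methyl group. The peptidyl transferase centre is an RNA active site in domain V of the large subunit rRNA, where peptide bonds are made. The A-loop of the same domain pairs with the end of the tRNA in the A site, and the sarcin-ricin loop of domain VI contacts the translation factors that hydrolyse GTP. Methyl groups are dense around these elements, and in yeast 1 of the A-loop methyl groups is placed by the protein enzyme Spb1.

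Where the sites sit is shown by stretches of the deposited mouse 28S sequence, written 5' to 3' in lower case with each listed site in capitals. The first holds the 2 sites with the lowest human positions (LSU-G4020 and LSU-C4032, mouse positions 3680 to 3722), the next the adjacent sites LSU-U4197 and LSU-G4198 (3865 to 3896). The third runs from the A-loop to the central loop of domain V (4140 to 4200, with LSU-G4464, LSU-U4468, LSU-G4469, LSU-A4493 and LSU-C4506), and the last spans the sarcin-ricin loop and the 3'-most sites (4237 to 4296, with LSU-A4560, LSU-G4588, LSU-U4590, LSU-G4593 and LSU-G4607).
28S 3680 to 3722: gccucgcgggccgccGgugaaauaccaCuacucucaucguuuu
28S 3865 to 3896: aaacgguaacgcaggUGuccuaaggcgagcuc
28S 4140 to 4200: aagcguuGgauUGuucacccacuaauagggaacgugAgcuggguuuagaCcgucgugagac
28S 4237 to 4296: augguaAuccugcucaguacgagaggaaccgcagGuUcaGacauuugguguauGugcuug

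The loops were found by their letters, each of which occurs once in mouse 28S rRNA. The A-loop (UUGUUCACC) covers positions 4150 to 4158 and holds LSU-U4468 and LSU-G4469. The central loop motif (GGGUUUAGA) covers positions 4180 to 4188, with LSU-A4493 at 4 nt before it and LSU-C4506 at 1 nt after it. The sarcin-ricin motif (AGUACGAGA) covers positions 4252 to 4260, and LSU-A4560 lies 9 nt before it and LSU-G4588 11 nt after it. Outside the printed stretches lie 6 sites, LSU-G4166, LSU-U4276, LSU-G4340, LSU-G4362, LSU-C4426 and LSU-A4541. Of the 20 sites, 8 have another listed site among the 6 nt on each side from which methylation is scored, so that these share part of their reference.

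Candidate guides were looked for among 377 box C/D snoRNA records of the mouse genome annotation (RefSeq, GRCm38.p6). A match was a run of at least 10 base pairs, with at most 2 G-U pairs, that put the site opposite the base 5 places upstream of a box CTGA with at most 1 mismatch, read on the strand of the snoRNA. Of the 20 sites, 14 had such a match, against 37 of the 46 other listed 28S sites and 3.56% of the 4665 unlisted 28S positions. At 12 or more paired bases the numbers were 11 of 20, 30 of 46 and 0.407%. No match was found for LSU-U4197, LSU-G4198, LSU-C4426, LSU-U4468, LSU-G4469 and LSU-A4493, so 2 of the 3 sites in and beside the A-loop and both of the adjacent pair are in this set. A match is a description of sequence and does not show that the snoRNA acts there.

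The elements are printed for matched sites that were called between the ages, had fractions on 5' and 3' ends more than 0.1 apart, or averaged below 0.90 at either age. The element at LSU-A4541 is not printed. Each is written 5' to 3', with the base opposite the site and the box in capitals.
SNORD102 at LSU-G4020, chr5:146834834-146834904, + strand: auuucacCggcuCUGA
SNORD75 at LSU-C4032, chr1:161035850-161035911, + strand: augagaguaGuggaCAGA
SNORD41 at LSU-U4276, chr8:85050207-85050276, + strand: uuguauucguAcuggCUGA
SNORD60 at LSU-G4340, chr17:24528476-24528553, + strand: uuucugacacCucguAUGA
SNORD19B at LSU-G4464, chr16:61070018-61070094, + strand: auaaucCaacuCUGA
Snord35a at LSU-C4506, chr7:45126347-45126435, - strand: ucucacgaugGucuuCGGA
SNORD115 at LSU-A4560, chr7:59606390-59606468, - strand: uaggaUuaccCUGA
Snord91a at LSU-G4588, chr11:74905446-74905505, + strand: agaugucugaaCcuguCUGA
SNORD78 at LSU-G4593, chr1:161036984-161037049, + strand: aucaaauguCugagCUGA
SNORD121A at LSU-G4607, chr4:41203057-41203133, - strand: ccaagcaCauauCUGA

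Of these 10 records, 8 lie in introns. SNORD75 and SNORD78 lie in introns of Gas5, a spliced transcript known as a host of many snoRNAs, and pair over 13 and 14 bases. SNORD102 lies in an intron of Rpl21 and Snord35a in an intron of Rpl13a, both ribosomal protein genes. SNORD41 lies in an intron of Tnpo2, Snord91a in an intron of Tsr1, and SNORD121A in an intron of Ubap2. The record of SNORD60 overlaps an exon of Rab26os, and that of SNORD19B has no annotated host on its strand. Further matches were SNORD31 (in Snhg1) at LSU-G4166, Snord1a, Snord1b and Snord1c at LSU-G4362, SNORD63 (in an intron of Hspa9) at LSU-A4541 and Snord72 (in an intron of Rpl37) at LSU-U4590, where Snord53 and a SNORD113/SNORD114 record matched over 11 bases.

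The record at LSU-A4560 belongs to the deleted Snord115 array, within introns of Snhg14. It pairs over 10 bases, 1 of them G-U, upstream of an exact box, and was met by 8 of the 132 SNORD115 records. The length is the shortest that was counted, and over all of 28S rRNA the SNORD115 records matched 12 positions, of which LSU-A4560 was the 1 listed site. The 69 SNORD116 records matched 11 positions in 28S rRNA and 0 listed sites. The paper states that Snord115 has no antisense element able to direct fibrillarin to rRNA. Whether the matched element acts at LSU-A4560 was not tested.

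The files hold the number of read ends at each rRNA position. Alkaline cleavage stops at a ribose that carries a methyl group, so such a position has few read ends. One minus the ratio of observed ends (5' plus 3') to those expected from the flanking 6 nt in both directions is the methylated fraction, with 0 in place of any negative value. Total read ends per brain ranged from 9621368 to 20064865, and the expected read ends at the 20 sites from 655 (LSU-G4020 in adult brain 3) to 9279 (LSU-A4541 in E16.5 brain 3). The fraction recomputed from the counts equalled the deposited one within 1e-05 at all 20 sites in each of the 6 brains. Where the next base is C, 3' ends were raised over 5' ends in 3 libraries. Over the 21 such listed sites the median log2 was 4.36 in adult brain 1, 2.89 in E16.5 brain 1 and 2.11 in E16.5 brain 3. LSU-C4506 and LSU-U4590 are followed by C. Where the next base is A, the median over the 18 such listed sites was 1.34 in adult brain 2, 1.55 in adult brain 3 and 2.41 in E16.5 brain 2. In the other libraries it was from -0.24 to 0.42. LSU-G4593 and LSU-U4276 are followed by A. Over them the median in adult brain 2, adult brain 3 and E16.5 brain 2 was -0.31, -0.49 and 0.82.

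In adult brains, methylation was close to complete at most of the sites. Over the sites, the mean fraction had a median of 0.967 in adult brains and of 0.908 in E16.5 brains, beside 0.962 and 0.934 at the 88 other listed sites. A mean of 0.75 or more was reached at 19 of the 20 sites in adult brains and at 16 at E16.5, and one of 0.90 or more at 16 and 11. Of all 108 listed sites, 104 and 95 reached 0.75. A mean of 0.90 was reached by 85.2% and 61.1% of all listed sites, beside 80% and 55% of the 20. The median SD between brains was 0.00696 in the adult group and 0.020 at E16.5. Brain by brain, the median over the sites was 0.973, 0.971 and 0.967 in adult brains 1, 2 and 3 and 0.920, 0.926 and 0.911 at E16.5, so no E16.5 brain reached an adult one.

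In order of level, 4 sites stood below the rest in the adult brains. LSU-G4593 was lowest, with a mean of 0, then LSU-G4607 with 0.798, LSU-G4020 with 0.849 and LSU-A4560 with 0.867. The brains of LSU-G4020 and LSU-A4560 overlapped each other, while LSU-G4593 and LSU-G4607 were each apart from the next site in the order. The 16 other sites had means from 0.938 (LSU-U4276) to 0.991 (LSU-C4426), and each overlapped its neighbour in the order. At E16.5 the order began with LSU-G4593 (0.302), LSU-A4560 (0.570), LSU-G4020 (0.607) and LSU-C4032 (0.745). Each site overlapped the next in this order except LSU-C4426, whose brains were all below those of LSU-G4198, the highest site at 0.989.

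The ages were compared on the read ends by edgeR's quasi-likelihood test over all 108 listed sites, with the expected ends as offset and Benjamini-Hochberg adjustment. A negative log2 change is a lower unprotected share, and so a higher methylated fraction, in the adult. The fraction was higher in the adult at 8 of the 20 sites (40.0%) and lower at 0, with an adjusted p under 0.05. Over all listed sites 26.9% were called in either direction, 25.9% as higher in the adult and 0.926% as lower. The median log2 change was -1.16 over the 20 sites and -0.87 over the 108. Every adult brain was above every E16.5 brain at 10 of the 20 sites, beside 38.9% of all listed sites, and below at 1, beside 3.7%. The p-values measure the spread between brains of 2 lines that also differ in age.

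The 8 sites were LSU-G4020, LSU-C4032, LSU-U4197, LSU-G4340, LSU-G4464, LSU-G4469, LSU-A4541 and LSU-G4588. In size of the difference LSU-G4020 came first. Its fractions were 0.844, 0.825 and 0.876 in adult brains 1, 2 and 3 and 0.669, 0.644 and 0.508 in the E16.5 brains. All adult brains stood above all E16.5 brains, and the means were 0.849 ± 0.0258 and 0.607 ± 0.0868 (SD, n = 3 each). The log2 change was -1.38 with an adjusted p of 0.0355 in edgeR, and leaving out any 1 brain gave adjusted p values from 0.0588 to 0.107. The expected ends here were from 655 to 1988 per brain.

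LSU-C4032, which lies 12 nt downstream and is matched by SNORD75, changed as much. Its fractions were 0.972, 0.966 and 0.963 in the adult brains and 0.788, 0.808 and 0.638 at E16.5. The adult brains were within 0.01 of each other, and the lowest E16.5 brain was brain 3. The means were 0.967 ± 0.00450 and 0.745 ± 0.0931 (SD, n = 3 each), with a log2 change of -2.95 ± 0.37 (SE) and an adjusted p of 0.00446. The call held without any 1 of the brains (adjusted p from 0.00954 to 0.0267).

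LSU-A4541, between the central loop and the sarcin-ricin loop, had a wide gap between the ages and little spread within them. Its fractions were 0.984, 0.981 and 0.977 in the adult brains and 0.841, 0.839 and 0.844 at E16.5. The gap between the ages (0.139) was many times the SD in either group, 0.00327 and 0.00210. Where 4206 to 9279 ends were expected, 97 to 118 were seen in the adult brains and 667 to 1452 at E16.5. The log2 change was -3.04 ± 0.39 (SE) with an adjusted p of 0.00446 in edgeR, and was called without any 1 of the brains.

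LSU-G4588, 11 nt beyond the sarcin-ricin motif, had fractions of 0.974, 0.953 and 0.958 in the adult brains and 0.919, 0.851 and 0.733 at E16.5. The E16.5 brains were spread over a wider range (SD 0.0945, against 0.0108 in the adult), and E16.5 brain 3 was again lowest. The log2 change was -2.11 with an adjusted p of 0.0348 in edgeR, and the call was kept in 1 of the 6 fits that left out a brain.

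LSU-G4340 is the site matched by SNORD60. Its fractions were 0.986, 0.978 and 0.978 in the adult brains and 0.924, 0.840 and 0.883 at E16.5, without overlap. The log2 change was -2.59 with an adjusted p of 0.00562 in edgeR, and the call held in all 6 fits without a brain. On the 3' ends alone the call was lost (log2 change -1.37, adjusted p 0.354).

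In and beside the A-loop, the 3 sites differed among themselves. LSU-G4469, the A-loop G whose yeast equivalent is methylated by Spb1, had fractions of 0.985, 0.990 and 0.991 in the adult brains and 0.940, 0.942 and 0.905 at E16.5. Its log2 change was -2.63 with an adjusted p of 0.00446 in edgeR, and it was called without any 1 of the brains. The adjacent LSU-U4468 had fractions of 0.970, 0.970 and 0.985 in the adult brains and 0.950, 0.972 and 0.960 at E16.5. These overlapped, and the log2 change of -0.63 had an adjusted p of 0.241 in edgeR. By 5' ends alone LSU-U4468 had 0.984, 0.965 and 0.984 in the adult brains and 0.945, 0.961 and 0.935 at E16.5, without overlap. LSU-G4469 had 0.990, 0.986 and 0.994 against 0.979, 0.969 and 0.980 on those ends. Its 3' ends gave 0.983, 0.992 and 0.989 against 0.919, 0.925 and 0.832, while those of LSU-U4468 overlapped. With both kinds of ends LSU-G4464, 3 nt before the loop, had 0.968, 0.961 and 0.967 against 0.920, 0.907 and 0.933. Its log2 change was -1.21 with an adjusted p of 0.0169 in edgeR, and the call was kept in 2 of the 6 fits that left out a brain, with adjusted p values up to 0.0543. Since the 3 sites lie within 6 nt of each other, the expected ends were also computed without the listed neighbours. The E16.5 mean then moved from 0.920 to 0.931 at LSU-G4464, from 0.961 to 0.968 at LSU-U4468 and from 0.929 to 0.941 at LSU-G4469, and the calls at the 20 sites were unchanged. The data had been seen when this setting was chosen.

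The adjacent pair LSU-U4197 and LSU-G4198 was near full methylation at both ages. LSU-U4197 had fractions of 0.989, 0.986 and 0.988 in the adult brains and 0.970, 0.977 and 0.972 at E16.5. This difference of 0.0144 was past the threshold (log2 change -1.11, adjusted p 0.0169 in edgeR), with the call kept in 2 of the 6 fits without a brain. It rested on the 5' ends, since on 3' ends alone the log2 change was 0.70. LSU-G4198, the next base, had means of 0.990 and 0.989 and a log2 change of -0.18 with an adjusted p of 0.679.

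LSU-G4593 was the site with a different pattern. Its fraction was 0 in all 3 adult brains and 0.498, 0 and 0.408 in E16.5 brains 1, 2 and 3. In adult brain 1, 4949 read ends were seen where 3734 were expected from the neighbours, in brain 2 6115 where 5136 were expected, and in brain 3 3869 where 3000 were expected. The observed ends were thus 1.33, 1.19 and 1.29 times the expected ones in the adult, above the level at which the fraction becomes 0. At E16.5 the ratios were 0.502, 1.002 and 0.592, so brain 2 was nearest to the adult brains, though below each of them. LSU-G4588 and LSU-U4590 are among the neighbours of this site. With listed neighbours left out of the expected ends, the fraction was 0 in each adult brain and 0.569, 0.141 and 0.484 at E16.5. The data had been seen when that setting was chosen.

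The 5' and 3' ends at this site did not show the same thing in E16.5 brain 2. The site is followed by A, before which 3' ends in that library were raised by a median log2 of 2.41 over the 18 such listed sites. Whether this accounts for its 3' ends was not tested. Taken by themselves, the 5' ends gave fractions of 0.545, 0.561 and 0.593 in the E16.5 brains and 0 in each adult brain. All E16.5 brains were then above all adult brains, and lay within 0.05 of each other. On the 3' ends alone the E16.5 values were 0.458, 0 and 0.160, and in brain 2 there were 4320 3' ends where 3887 were expected. With both kinds of ends the log2 change was 0.86 with an adjusted p of 0.0848 in edgeR, short of the threshold. On the 5' ends alone it was 1.48 ± 0.12 (SE) with an adjusted p of 2.59e-06, and without E16.5 brain 2 it was 1.21 with an adjusted p of 0.00544. In the authors' list the adult WT mean was 0 and the E16.5 one 0.412 (SD 0.0776). LSU-G4593 is matched by SNORD78 of Gas5, as LSU-C4032 is by SNORD75, and these 2 sites had their higher fraction at opposite ages.

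LSU-G4607, the 3'-most site, was the 1 site of the 20 where every adult brain lay below every E16.5 brain. Its fractions were 0.772, 0.800 and 0.821 in the adult brains and 0.892, 0.909 and 0.884 at E16.5. The means were 0.798 ± 0.0248 and 0.895 ± 0.0127 (SD, n = 3 each). The log2 change of 0.94 had an adjusted p of 0.0979 in edgeR, 0.000724 in DESeq2 and 0.00202 on the 5' ends alone, so that this site was called in some of the settings and not in the main one. The WT means in the list differed in the same direction, 0.774 in the adult and 0.871 at E16.5.

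LSU-A4560, 9 nt before the sarcin-ricin motif, had the widest spread. Its fractions were 0.896, 0.835 and 0.869 in the adult brains and 0.712, 0.755 and 0.244 at E16.5. E16.5 brain 3 stood far below the other 2, and the SD of the group was 0.284 against 0.0303 in the adult. In that brain 3684 3' ends were seen where 3539 were expected, which makes the fraction on 3' ends 0, while the 5' ends gave 0.723. The 5' ends by themselves gave 0.938, 0.910 and 0.899 in the adult brains and 0.863, 0.851 and 0.723 at E16.5, again without overlap. With both kinds of ends the log2 change was -1.69 with an adjusted p of 0.0583 in edgeR. It passed the threshold on the 5' ends alone (log2 change -1.15, adjusted p 0.00763) and in DESeq2 (adjusted p 0.00956).

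LSU-U4276, matched by SNORD41 over 15 bases, had fractions of 0.986, 0.8996 and 0.928 in the adult brains and 0.869, 0.718 and 0.916 at E16.5. Both groups overlapped, and the log2 change of -1.41 had an adjusted p of 0.241 in edgeR. By the 5' ends, all adult brains (0.920, 0.872 and 0.874) were above all E16.5 brains (0.671, 0.767 and 0.708). On those ends the log2 change was -1.35 with an adjusted p of 0.00487. LSU-U4276 is followed by A, as LSU-G4593 is, and in E16.5 brain 2 its 3' ends gave a fraction of 0.710.

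At the 2 sites followed by C, the excess of 3' ends in the libraries of replicate 1 was large beside the difference between ages. LSU-C4506, next to the central loop, had fractions of 0.918, 0.988 and 0.950 in the adult brains and 0.821, 0.971 and 0.942 at E16.5, with replicate 1 lowest at both ages. There the fraction on the 3' ends was 0.679 in adult brain 1 and 0.459 in E16.5 brain 1, and on the 5' ends 0.989 and 0.976. With replicate 1 scored on its 5' ends, the mean moved from 0.952 to 0.976 in the adult and from 0.912 to 0.963 at E16.5. With E16.5 brain 3 on its 5' ends as well, the E16.5 mean was 0.975. The log2 change of -0.88 (adjusted p 0.493) became 0.15 without E16.5 brain 1. LSU-U4590 had 0.916, 0.969 and 0.959 against 0.888, 0.954 and 0.872. Scored in the same way, its means moved from 0.948 to 0.973 and from 0.905 to 0.921, or to 0.931 with E16.5 brain 3 as well. These settings were chosen with the data in view.

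Fractions on 5' and on 3' ends differed by over 0.1 in the mean of a group at 2 of the 20 sites in the adult and at 8 at E16.5. In the adult these were LSU-G4020 (0.809 on 5' and 0.922 on 3' ends) and LSU-A4560 (0.916 and 0.729). Among the E16.5 means, the 5' ends gave the lower one at LSU-G4020 (0.493 against 0.826), LSU-U4276 (0.715 against 0.880), LSU-G4340 (0.828 against 0.954) and LSU-G4588 (0.725 against 0.902). They gave the higher one at LSU-C4032 (0.895 against 0.642), LSU-C4506 (0.976 against 0.7501), LSU-A4560 (0.812 against 0.325) and LSU-G4593 (0.566 against 0.206). Of the 108 listed sites, 16 differed by this much in the adult and 35 at E16.5. By 5' ends alone 17 of the 20 sites were called between the ages (15 higher and 2 lower in the adult), beside 58.3% of all listed sites. The 2 lower ones were LSU-G4593 and LSU-G4607. By 3' ends alone 3 were called (LSU-C4032, LSU-G4469 and LSU-A4541, each higher in the adult), beside 6.54% of the listed sites that could be tested. The calls at LSU-G4020, LSU-U4197, LSU-G4340, LSU-G4464 and LSU-G4588 were lost there.

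At the remaining sites the mean fraction changed little, and none was called in the main fit. LSU-G4166, LSU-G4362, LSU-C4426 and LSU-A4493 had adult means of 0.966, 0.984, 0.991 and 0.988 and E16.5 means of 0.949, 0.977, 0.977 and 0.977. Their log2 changes ran from -0.61 to -1.28 with adjusted p values from 0.0979 to 0.286 in edgeR, and the brains of LSU-C4426 alone did not overlap between the ages. LSU-G4362, LSU-C4426 and LSU-A4493 were each called in 1 of the 6 fits that left out a brain, and LSU-G4166 in 0. Some of these sites were also among the 17 called by 5' ends alone. The log2 changes at LSU-C4426 (-1.28) and LSU-A4493 (-0.99) were close to those of the called LSU-U4197 (-1.11) and LSU-G4464 (-1.21).

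The KO brains were then set against the WT means of the authors' list, as a description. In the adult the KO mean was above the WT mean at 10 of the 20 sites, below it at 9 and equal at LSU-G4593 (47, 60 and 1 of the 108 listed sites), and the median size of the difference was 0.0175, beside 0.0104 at the other listed sites. It was over 0.05 at 2 sites, beside 12% of all listed sites. These were LSU-A4560 with 0.867 in the KO and 0.700 in the WT (SD of the WT 0.126), and LSU-C4032 with 0.967 and 0.899 (SD 0.0269). The difference of 0.167 at LSU-A4560 was the third in size of the 108, and was under 2 SD of the WT. A difference over 2 times the larger of both SDs in the list was seen at 3 sites, beside 16.7% of all listed sites. These were LSU-C4032, LSU-A4541 (0.981 in the KO and 0.950 in the WT) and LSU-G4588 (0.962 and 0.927), each higher in the KO. The SDs of the list are smaller than those given above for the brains. At LSU-G4020 in the adult KO, for example, they are 0.02105 and 0.02578, so this cut is a lower one.

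In the E16.5 brains the KO mean was above the WT mean at 7 sites and below it at 13, beside 38 and 70 of the 108 listed sites. The difference was over 0.05 at 5 sites, beside 14.8% of all listed sites, and over 2 SD at 0, beside 4.63%. The KO was lower at all 5, and KO minus WT was -0.110 at LSU-G4593, -0.0869 at LSU-G4020, -0.0708 at LSU-U4276, -0.0655 at LSU-G4588 and -0.0578 at LSU-A4560. The first of these was the largest difference in the list at this age. The KO group there holds E16.5 brain 2, whose fraction was 0 on both kinds of ends and 0.561 on its 5' ends. At LSU-A4560, the site matched by SNORD115, the KO was thus above the WT in the adult and below it at E16.5, with WT SDs of 0.126 and 0.187. At E16.5 this rested on brain 3 (0.244), since brains 1 and 2 (0.712 and 0.755) were above the WT mean of 0.628. The paper names slight changes in the adult Snord115-KO at a few rRNA sites, and LSU-A4560 is not among them. The paper concludes that Snord115 has no prominent role in the ribose methylation of rRNA. At LSU-C4506 the KO mean in the list at E16.5 was 0.963, where the mean of the brains was 0.912. It equals the mean obtained with E16.5 brain 1 scored on its 5' ends. In the adult the list holds the mean of both kinds of ends (0.952). There KO minus WT was -0.0376, and it was -0.0140 with adult brain 1 on its 5' ends.

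The age difference was also seen in the WT means of the list. At 16 of the 20 sites the adult WT mean exceeded that at E16.5, with a median difference of 0.0223, beside 87 of the 108 listed sites and a median of 0.0226. At LSU-G4020, LSU-C4032, LSU-A4541 and LSU-G4469 it was higher by 0.113, 0.111, 0.0949 and 0.0927. In the KO brains the difference between the ages had the same sign as in the WT means at 18 of the 20 sites, beside 88 of the 108 listed ones. It was larger in the KO at LSU-G4020 (0.242), LSU-C4032 (0.222), LSU-A4541 (0.139), LSU-A4560 (0.296 against 0.0716) and LSU-G4588 (0.127 against 0.0276). The value at LSU-A4560 includes E16.5 brain 3 (0.244), far below the other brains of its group. The difference was smaller in size in the KO at LSU-G4469 (adult and E16.5 means of 0.989 and 0.929) and at LSU-G4593 (0 and 0.302), among others. Whether these differences differ was not tested.

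Between the sites, the 576 unlisted positions of the stretch had a median of the mean fraction of 0.0864 in adult and 0.102 in E16.5 brains. No unlisted position reached 0.75 in all 6 brains, and 8 reached 0.5 in all of them. The lowest adult mean of the 20 sites other than LSU-G4593 was 0.798, far above that median, while LSU-G4593 in the adult was at 0, below it.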

How the data were processed

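RiboMeth-seq tables of 6 whole brains were used, the adult group without Snord115 and the E16.5 group without Snord115 and Snord116, with 3 brains in each. The authors ligated linkers to alkaline fragments of total RNA, sequenced them on an Ion Proton and mapped the reads to curated rRNA references of the mouse. Tools in the submitters' processing notes are Bowtie2 2.3.4.1 and cutadapt 2.0. The deposited counts are 5' and 3' read ends per rRNA position and brain, without normalization. The deposited methylated fraction per position and brain was made by the authors from these counts. The deposited RiboMeth-seq score of the list of sites is the authors' mean over KO or WT brains, with its SD, and some means were corrected by the authors. A column of per-sample values without a heading (1 column) was not used.

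Expected ends were the weighted mean of 6 neighbours per side (weights 1.0 to 0.5). Ages were compared with edgeR 4.0.16 (R 4.3.3) at a threshold of 0.05. The fit was also run on counts simulated 20 times with 40 of the 108 sites changed. It recovered 56.2% of the changes of log2 2 and 8.5% of those of log2 1, with 0.75 false calls per run. A site that was not called may therefore have changed. The SE is the log2 change over the root of the F statistic. No 2 brains shared their counts. The labels do not say whether brains came from separate litters, so p-values measure the spread between these samples. Reads carry no molecular identifiers, and no counting intervals are given. DESeq2 1.42.0 and limma 3.58.1 served as alternatives, beside other neighbour settings, single kinds of ends, a minimum of 1000 expected ends and leaving out each brain. Sites were named with full values where a mean was under 0.90, where they passed the threshold, where KO and WT means differed by over 0.05, or where 5' and 3' fractions differed by over 0.1. Candidate guides were read with samtools 1.23.1 from the RefSeq genome, and host genes from GENCODE vM21. The sites, lists and alternatives were chosen with earlier results of these data known.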

Additional observations from a re-analysis of the deposited data

Results flagged for a closer look

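At 4 of the 20 sites every adult KO brain lay on one side of the WT mean and every E16.5 KO brain on the other. The difference was not tested. How many of the 108 listed sites did the same was not counted, so this number has no background beside it. KO minus WT in the adult less the same at E16.5 was 0.129 at LSU-G4020, 0.0444 at LSU-A4541, -0.0300 at LSU-G4464 and -0.00629 at LSU-G4198. The KO was higher in the adult at the first 2 and lower at the others. At LSU-G4198 all values were between 0.985 and 0.992.

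In the stretch of the 20 sites, 8 positions that the authors do not list reached a fraction of 0.5 in each of the 6 brains. The lowest fraction over the brains was 0.716 at U 4095, 0.715 at A 3872, 0.585 at U 4124, 0.583 at C 3749, 0.556 at U 4174, 0.548 at U 4014, 0.527 at U 3882 and 0.505 at U 4084, in mouse numbering. At A 3872 the 5' ends by themselves gave at least 0.967 in each brain, and the 3' ends as little as 0. U 3882 directly follows LSU-G4198. No control without methylation was among the samples.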

How the results depend on the processing

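The age, the line and the loss of Snord116 cannot be told apart, with 3 brains per group. The 8 sites called between the ages were 17 on the 5' ends alone, 3 on the 3' ends alone and 5 with at least 1000 expected ends in every brain, where 15 of the 20 sites were tested. Of all 108 listed sites 29 were called, 63 on the 5' ends and 7 on the 3' ends. With TMM library sizes in place of the expected ends, edgeR called 0 of the 20 sites and 0 of 108 (6 and 23 at an unadjusted p under 0.05). That fit compares read ends without their neighbours, and moved the median log2 change of all listed sites from -0.87 to 0.17. Leaving out 1 brain gave 4 to 7 called sites of the 20 (4 without adult brain 2, 5 without adult brain 1 or E16.5 brain 3) and 10 to 30 of 108 (10 without adult brain 2). With the replicate block the numbers were 7 and 31, and LSU-G4020 was lost (adjusted p 0.0590). Deviations of same-numbered brains correlated at 0.67, 0.45 and -0.18, and adult brain 3 correlated best with E16.5 brain 2, so the numbers were not taken as pairs.

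The median fraction was 0.973 in the adult with 2 neighbours and 0.974 on the 5' ends, against 0.967. At E16.5 it was 0.896 with 2 neighbours, 0.899 with 4, 0.930 on the 5' ends and 0.897 on the 3' ends, against 0.908, and 0.898 to 0.916 without 1 brain. The direction of the log2 change turned at LSU-G4166 (1.07), LSU-U4197 (0.70), LSU-G4198 (0.40) and LSU-G4362 (0.90) on the 3' ends alone, and at LSU-C4506 on the 5' ends alone (0.33). It also turned at LSU-G4198 (-0.34 to 0.049) and LSU-C4506 (-1.53 to 0.15) among the fits without 1 brain. The cause was not tested. Equal weights, the median of the 12 neighbours and neighbours without listed sites changed no call among the 20 sites. The last of these was chosen after seeing the data.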
